A study of Mus musculus with 4 samples.

Results

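The genes for carriers of glucose, lactate and amino acids were compared between the dorsal and the ventral side of the tracheoesophageal anlage, the single foregut tube from which the esophagus and the respiratory organs arise. The members were the probe sets of the Affymetrix mouse arrays whose only annotated gene belonged to the solute carrier families Slc1, Slc2, Slc3, Slc5, Slc6, Slc7, Slc16, Slc36, Slc38 or Slc43 under a plain numbered symbol. They comprised 181 probe sets of 93 genes, of 34958 named probe sets of 18194 genes in all. The tube was taken from BALB/c embryos around E9.75, when the lung bud first swells ventrally, and was cut under the microscope into both parts, with 2 arrays per part. The labels name no mutation or agent for either part and describe the arrays of a part as biological replicates. It is not known from the sources used here if separate litters or pools gave them. A p-value thus reflects the spread of these arrays alone, taken partly over all tested genes, and that spread may be technical. Each part held epithelium and mesenchyme together, so no value belongs to one tissue layer, and fewer cells of a type cannot be told apart from less RNA per cell.

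Cells take up glucose mainly through the facilitative carriers of the Slc2 family (GLUT proteins) and, where sodium drives the uptake, through Slc5 carriers. Lactate and other monocarboxylates cross the membrane with protons through members of Slc16 (MCT proteins), several of which need the membrane proteins basigin or embigin to reach the cell surface. Amino acids enter through several systems with overlapping substrates. Slc1 and Slc38 carriers take up glutamate, glutamine and small neutral amino acids with sodium, the light chains of Slc7 pair with a heavy chain of Slc3 to exchange large neutral or basic amino acids, and Slc43, Slc36 and Slc6 carry large neutral amino acids, small amino acids with protons, and taurine, creatine or transmitters, respectively. Embryonic tissues rely strongly on glucose uptake and lactate release, and leucine and glutamine that enter through these carriers are signals for growth through the kinase complex mTORC1.

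Of the 93 genes, 65 were tested and 7 differed between the parts. Values are the RMA values that the authors deposited, read as log2, and a gene was represented by its probe set with the highest mean. It was tested when at least 2 arrays had that probe set above their own 40th percentile. At an adjusted p under 0.05 from limma, *Slc2a13*, *Slc2a3*, *Slc16a12* and *Slc16a3* were higher in the ventral part, and *Slc38a5*, *Slc7a2* and *Slc43a2* were higher in the dorsal part. Thus 3 of 65 tested transporter genes (4.62%) were higher dorsally beside 4.79% of all 13139 tested genes, and 4 (6.15%) were higher ventrally beside 4.09%. With counts this small the shares were near those of all genes. Every dorsal array lay above every ventral one for 20 of the 65 genes (30.8%) beside 33.3% of all tested genes, and every ventral array lay above every dorsal one for 19 (29.2%) beside 17.6%. The median difference, dorsal minus ventral on the log2 scale, was -0.02 for the 65 genes and 0.07 for all tested genes. Of all tested genes 61.6% had a higher mean dorsally. That share was 61.2% without dorsal replicate 1, 61.8% without dorsal replicate 2, 68.6% without ventral replicate 1 and 50.0% without ventral replicate 2. Of the called genes, the ventral ones encode carriers of glucose, inositol, creatine and lactate, and the dorsal ones encode carriers of amino acids. This describes those 7 genes only, as other tested genes of both kinds ran in the opposite direction without passing. A fit that leaves out an array takes its spread from the arrays of the other part alone. Its counts assume an equal spread in both parts and cannot be set directly beside those of the main fit. The main fit makes the same assumption, as it gives a gene the same spread in both parts. Its SEs, p-values and calls rest on that. The spreads were not equal, since replicate arrays typically lay 0.08 apart dorsally but 0.26 apart ventrally (medians over all tested genes). Without dorsal replicate 1 or without dorsal replicate 2 only *Slc38a5* passed dorsally (1.90% and 1.94% of all tested genes in these fits), while the same 4 genes passed ventrally (2.15% and 2.13% of all). Without ventral replicate 1 the counts were 15 dorsal and 11 ventral genes of 64 tested (23.4% and 17.2%), beside 35.1% and 12.3% of all tested genes. Without ventral replicate 2 they were 5 and 5 of 65 (7.69% each), beside 4.78% and 6.21%.

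**Figure D1:**
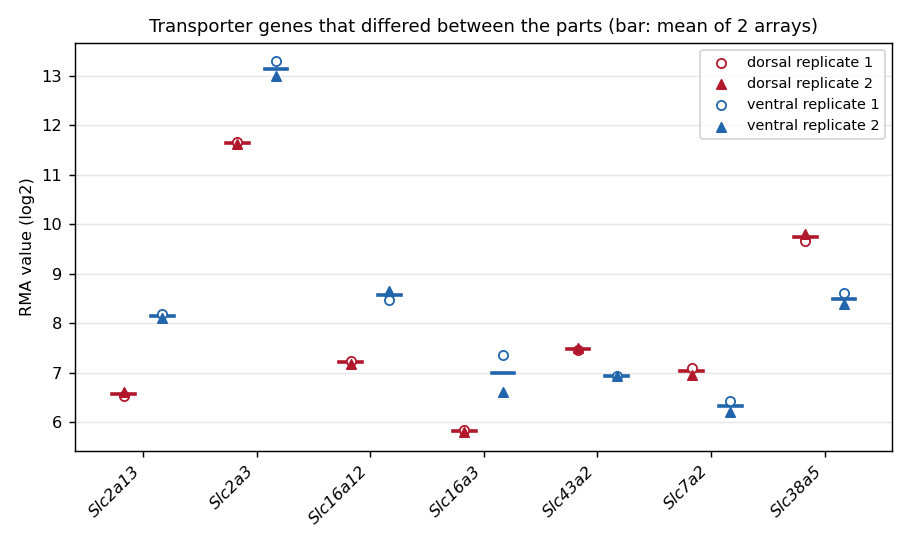
RMA values (log2, vertical axis) of the 7 transporter genes that passed the test, with 1 symbol per array (circles for replicate 1, triangles for replicate 2) and the mean of 2 arrays as a bar, for the dorsal (red) and ventral (blue) parts. The 4 genes on the left lie higher on both ventral arrays and the 3 on the right on both dorsal arrays, and values are to be compared within a gene only.

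The facilitative sugar carriers of the Slc2 family had most of their values higher in the ventral part. Of 8 tested genes, 2 passed the test ventrally and none dorsally, beside 4.09% and 4.79% of all tested genes. The mean was lower dorsally for 7 of them, with a family median of -0.25, while 61.6% of all tested genes had a higher mean dorsally. Without dorsal replicate 1 or 2 it was lower dorsally for 6 of the 8 genes. Without ventral replicate 1 this held for all 8, and without ventral replicate 2 for 5. In these fits 68.6% and 50.0% of all tested genes, respectively, had a higher mean dorsally. *Slc2a3*, which encodes the high-affinity glucose carrier GLUT3 of neurons and early embryos, read 11.66 and 11.61 dorsally against 13.29 and 12.98 ventrally. Both ventral arrays thus stood well above both dorsal arrays, by 2.82-fold on average (log2 difference -1.50, SE 0.17, adjusted p = 1.52e-06 from limma, with n = 2 arrays on each side). Between the arrays that share a number it was -1.63 for number 1 and -1.37 for number 2. The probe set kept for *Slc2a3* is of a kind that can match several transcripts. Another of this kind gave -1.68, and one without that mark gave -0.96, each past the test when every probe set was fitted on its own. With 1 probe set per gene and all arrays, the largest difference of a tested transporter gene was that of *Slc2a13*, though *Slc2a3* exceeded it with its other shared probe set and without ventral replicate 2 (-1.65 against -1.61). *Slc2a13* encodes the proton-coupled myo-inositol carrier HMIT. Its values were 6.53 and 6.62 dorsally against 8.19 and 8.11 ventrally, with no overlap and a 2.97-fold difference (log2 difference -1.57, SE 0.17, adjusted p = 4.28e-07 from limma).

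The remaining Slc2 genes had smaller differences. *Slc2a1*, which encodes the widely expressed glucose carrier GLUT1, had values of 11.21 and 11.23 dorsally against 11.63 and 11.43 ventrally. The ventral arrays were the higher ones, but the difference of -0.31 (SE 0.17) did not pass the test (adjusted p = 0.338 from limma). Its other probe sets gave -0.41 and -0.33. With the values quantile-normalized once more *Slc2a1* passed at -0.41 (adjusted p = 0.0416 from limma). Among the alternatives on all arrays it passed under this one alone. Without ventral replicate 2 its difference was -0.42. *Slc2a5*, which encodes the fructose carrier GLUT5, differed by -0.25 (adjusted p = 0.493), and the other tested genes *Slc2a4*, *Slc2a8*, *Slc2a9* and *Slc2a12* ran from -0.25 to 0.15. *Slc2a2*, *Slc2a6* and *Slc2a10* were not tested for their low values. The first of these encodes GLUT2 of liver and pancreatic islets, and it lay below the 40th percentile on all 4 arrays.

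In the Slc16 family, genes for a lactate carrier and a creatine carrier were higher ventrally while the gene of the lactate carrier MCT1 did not pass the test. Of 11 tested genes, 2 passed ventrally and none dorsally, beside 4.09% and 4.79% of all tested genes, and the family median was 0.02. *Slc16a3* encodes MCT4, the carrier known for lactate release from strongly glycolytic cells. Its values were 5.85 and 5.80 dorsally against 7.36 and 6.62 ventrally, so both ventral arrays were higher but they stood apart from each other. The mean difference was 2.23-fold (log2 difference -1.16, SE 0.20, adjusted p = 0.000315 from limma), at -1.50 between the arrays numbered 1 and -0.82 between those numbered 2. *Slc16a12*, whose protein carries creatine, had values of 7.24 and 7.18 dorsally against 8.47 and 8.65 ventrally. Here the arrays of each part lay close together, and the difference was 2.55-fold (log2 difference -1.35, SE 0.17, adjusted p = 4.64e-06 from limma).

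*Slc16a1*, which encodes the lactate carrier MCT1, had values of 10.79 and 10.69 dorsally against 10.92 and 10.53 ventrally. The ventral arrays lay on both sides of the dorsal ones, and the difference was 0.02 (SE 0.18, adjusted p = 0.975 from limma). Between arrays of number 1 it was -0.13, and between those of number 2 it was 0.16. *Slc16a4*, a monocarboxylate carrier gene of less known function, had higher values on both dorsal arrays (8.08 and 8.04) than on the ventral ones (7.66 and 7.48). Its difference of 0.48 did not pass (adjusted p = 0.0883 from limma). *Slc16a6* differed by -0.34 (adjusted p = 0.305). The other 6 tested genes of the family, *Slc16a7*, *Slc16a9*, *Slc16a10*, *Slc16a11*, *Slc16a13* and *Slc16a14*, ran from -0.31 to 0.31. *Slc16a5* and *Slc16a8* were not tested for their low values.

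**Figure D2:**
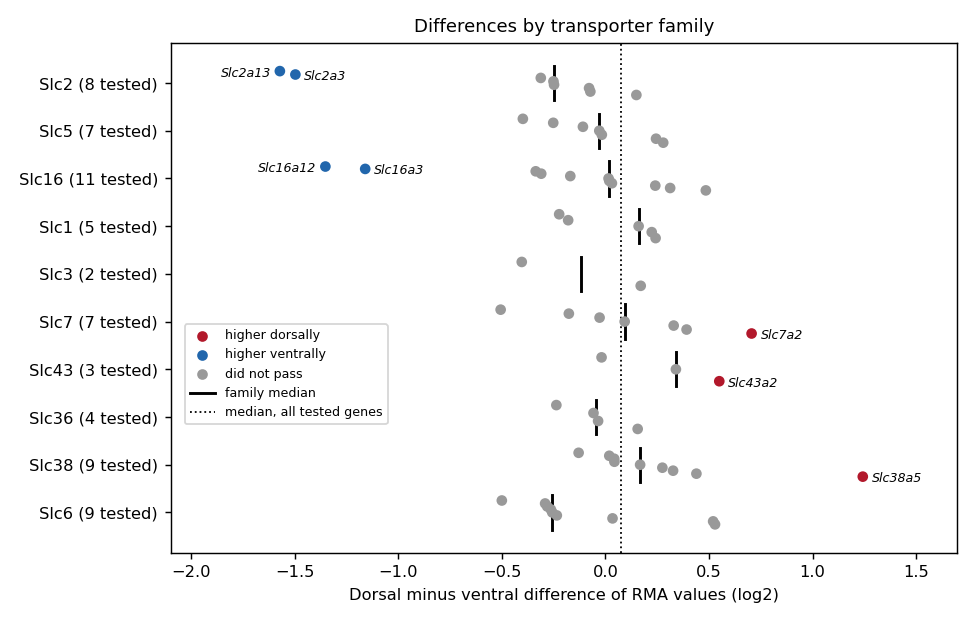
Difference in RMA value (log2, dorsal minus ventral, horizontal axis) of each of the 65 tested transporter genes by family (vertical axis), as points whose colour gives the limma call, a bar at the family median and a dotted line at 0.07, the median of all tested genes. The family medians run from -0.26 for Slc6 to 0.34 for Slc43, and the 4 points beyond -1 belong to Slc2 and Slc16.

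The promoter sequences of 4 of the genes that differed most are given, 3 of them higher ventrally and 1 dorsally. RefSeq windows of 300 bases (GRCm38.p6), from 250 bases before to 50 bases after a transcript start, were found for 67 of the 93 genes and for 5 of the 7 called genes, with none for *Slc2a3* or *Slc7a2*. They were searched on both strands for TGATGNAA, the core of the amino acid response element that ATF4 and its partners bind. The second word was CACGTG, a form of the E-box and the only form that E-box stands for here. The last word was ACGTG, the core bound by hypoxia-inducible factors, and CACGTG contains it. Capitals mark these words. The windows lie at chr15:91573212-91573511 on the minus strand for *Slc2a13*, at chr11:120948817-120949116 on the plus strand for *Slc16a3*, at chr19:34747279-34747578 on the minus strand for *Slc16a12* and at chrX:8271131-8271430 on the plus strand for *Slc38a5*. For *Slc16a3* and *Slc16a12* the start lies inside the annotated gene, and other starts were not searched.
Slc2a13: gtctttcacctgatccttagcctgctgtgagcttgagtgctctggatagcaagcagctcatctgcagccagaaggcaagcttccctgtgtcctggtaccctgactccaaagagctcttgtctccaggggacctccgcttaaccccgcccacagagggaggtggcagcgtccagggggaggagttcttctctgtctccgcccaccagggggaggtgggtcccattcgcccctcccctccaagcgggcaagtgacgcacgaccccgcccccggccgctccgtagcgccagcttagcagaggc
Slc16a3: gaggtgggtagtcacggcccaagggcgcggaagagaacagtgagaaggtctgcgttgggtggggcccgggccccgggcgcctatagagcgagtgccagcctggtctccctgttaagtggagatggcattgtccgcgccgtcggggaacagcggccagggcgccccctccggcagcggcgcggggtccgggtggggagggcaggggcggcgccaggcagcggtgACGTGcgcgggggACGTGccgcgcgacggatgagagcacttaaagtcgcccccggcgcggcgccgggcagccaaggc
Slc16a12: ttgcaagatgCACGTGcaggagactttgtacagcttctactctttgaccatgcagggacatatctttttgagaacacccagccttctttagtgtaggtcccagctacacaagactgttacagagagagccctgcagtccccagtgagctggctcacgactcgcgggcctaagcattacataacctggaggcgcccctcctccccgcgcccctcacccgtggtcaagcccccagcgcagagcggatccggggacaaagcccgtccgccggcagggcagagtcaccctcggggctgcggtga
Slc38a5: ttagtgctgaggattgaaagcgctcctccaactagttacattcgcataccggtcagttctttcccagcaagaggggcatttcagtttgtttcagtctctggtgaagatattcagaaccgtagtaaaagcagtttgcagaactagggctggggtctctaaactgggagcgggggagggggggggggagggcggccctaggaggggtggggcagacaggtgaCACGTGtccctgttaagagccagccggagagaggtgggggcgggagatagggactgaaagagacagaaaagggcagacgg

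The *Slc16a3* window held ACGTG at 27 and 14 bases before the start, with no E-box. *Slc38a5* had an E-box 30 bases before the start and *Slc16a12* one 240 bases before it, and no searched word was found for *Slc2a13*. The word ACGTG also lay 36 bases before the start of *Slc2a1*, which did not pass the test. Among all 32851 windows 19.6% held ACGTG, 7.15% the E-box and 3.97% the amino acid response core. Among the 90 windows of transporter genes these shares were 28.9%, 13.3% and 5.56%. Such a match is a description of the letters only.

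Among sodium-coupled Slc5 carriers, none of 7 tested genes passed the limma test, and 1 had an unadjusted p under 0.05. The family median was -0.03. *Slc5a3*, which encodes the sodium-coupled myo-inositol carrier SMIT1, had values of 10.33 and 10.37 dorsally against 10.18 and 9.96 ventrally. Its dorsal arrays were the higher ones, in the direction opposite to that of the proton-coupled inositol carrier gene *Slc2a13*, with a difference of 0.28 (SE 0.17) that did not pass (adjusted p = 0.411 from limma). *Slc5a9*, a sugar carrier gene, differed by -0.40 (adjusted p = 0.244). The other 5 tested genes, *Slc5a2*, *Slc5a5*, *Slc5a6*, *Slc5a10* and *Slc5a11*, ran from -0.25 to 0.24. *Slc5a1*, which encodes the intestinal glucose carrier SGLT1, was not tested for its low values, and neither were *Slc5a7*, *Slc5a8* and *Slc5a12*.

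Among the sodium-coupled neutral amino acid carriers of Slc38, 1 of 9 tested genes passed dorsally and none ventrally. Of all tested genes 4.79% passed dorsally and 4.09% ventrally. In the family 8 genes had higher means dorsally, beside 61.6% of all tested genes, with a family median of 0.17. With the values quantile-normalized once more 5 of the 9 were higher dorsally and the median was 0.06, while the median of all tested genes moved from 0.07 to -0.02. *Slc38a5*, which encodes the glutamine carrier SNAT5 of system N, had values of 9.66 and 9.81 dorsally against 8.60 and 8.38 ventrally. The parts did not overlap, and the difference was 2.37-fold (log2 difference 1.24, SE 0.17, adjusted p = 1.76e-05 from limma), at 1.06 between the arrays numbered 1 and 1.42 between those numbered 2. *Slc38a2*, whose product SNAT2 is raised by amino acid shortage, had values of 12.45 and 12.60 dorsally against 12.51 and 12.46 ventrally. These overlapped, with a difference of 0.04 (SE 0.17, adjusted p = 0.922 from limma). *Slc38a1*, which encodes the glutamine carrier SNAT1, was higher on both dorsal arrays (11.57 and 11.64) than on the ventral ones (11.41 and 11.15), a difference of 0.33 that did not pass (adjusted p = 0.320). *Slc38a6* differed by 0.44 (adjusted p = 0.133). *Slc38a3*, *Slc38a4*, *Slc38a7*, *Slc38a9* and *Slc38a10* ran from -0.13 to 0.27.

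For basic and large neutral amino acids, a cationic carrier gene and a system L gene were higher dorsally. Of 7 tested Slc7 genes, 1 passed dorsally and none ventrally, beside 4.79% and 4.09% of all tested genes. The median was 0.09, a sign that turned without ventral replicate 2, without a filter and after the further quantile normalization. *Slc7a2* encodes CAT2, a carrier of arginine, lysine and ornithine. Its values were 7.11 and 6.96 dorsally against 6.44 and 6.22 ventrally, and the dorsal arrays stood above the ventral ones by 1.63-fold (log2 difference 0.71, SE 0.17, adjusted p = 0.00855 from limma). The call was lost when dorsal replicate 1 (0.63) or 2 (0.78) was left out, with adjusted p from 0.00102 to 0.471 over the alternatives. Its other 3 probe sets were too dim to be tested and differed by -0.16 to 0.08. The genes of the related carriers CAT1 and CAT3, *Slc7a1* and *Slc7a3*, had differences of 0.33 and 0.39 that did not pass (adjusted p = 0.301 and 0.206 from limma). For all 3 of these genes both dorsal arrays lay above both ventral arrays, as they did for 33.3% of all tested genes. *Slc7a4*, a relative of them, ran the other way at -0.51 (adjusted p = 0.101).

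The genes of the system L light chain LAT1 and of its heavy chain did not pass the test. *Slc7a5*, which encodes LAT1, had values of 8.41 and 8.45 dorsally against 8.47 and 8.20 ventrally, with a difference of 0.09 (SE 0.17, adjusted p = 0.816 from limma). *Slc3a2*, which encodes the heavy chain CD98, had 10.79 and 10.77 dorsally against 10.79 and 10.42 ventrally, a difference of 0.17 (SE 0.18, adjusted p = 0.651). For both, ventral replicate 2 was the lowest array. Neither of the 2 Slc3 genes passed the limma test, and 1 had an unadjusted p under 0.05, with a family median of -0.12. That one was *Slc3a1*, the heavy chain gene of the cystine carrier of kidney, at -0.40 (adjusted p = 0.248). *Slc7a11*, the light chain gene of the cystine and glutamate exchanger, lay between 3.46 and 3.95, below the 40th percentile of every array, and was not tested. *Slc7a6* and *Slc7a7* differed by -0.03 and -0.18. *Slc7a8*, *Slc7a9*, *Slc7a10*, *Slc7a12*, *Slc7a13*, *Slc7a14* and *Slc7a15* were not tested for their low values.

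Of the 3 tested Slc43 genes, *Slc43a2* passed dorsally, as did 4.79% of all tested genes, and the family median was 0.34. *Slc43a2* encodes LAT4, a carrier of large neutral amino acids that works without a heavy chain. Its values were 7.46 and 7.51 dorsally against 6.94 on both ventral arrays, a difference of 1.46-fold (log2 difference 0.55, SE 0.17, adjusted p = 0.0414 from limma). The parts did not overlap, but this was the weakest of the 7 calls. It was lost under 9 of its 15 alternatives, always with the same direction, at adjusted p from 0.0145 to 0.749. Among these were the fits without dorsal replicate 1 (0.57) and without dorsal replicate 2 (0.53), as well as no filter, the mean of all its probe sets (0.32) and both further scalings. The fits without a ventral array, whose spread comes from the dorsal arrays alone, are counted among those it passed. *Slc43a3*, which encodes a carrier of purine bases, had values of 8.66 and 8.68 dorsally against 8.62 and 8.04 ventrally. Only ventral replicate 2 stood apart, and the difference of 0.34 did not pass (adjusted p = 0.353). *Slc43a1*, the gene of LAT3, differed by -0.02.

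**Figure D3:**
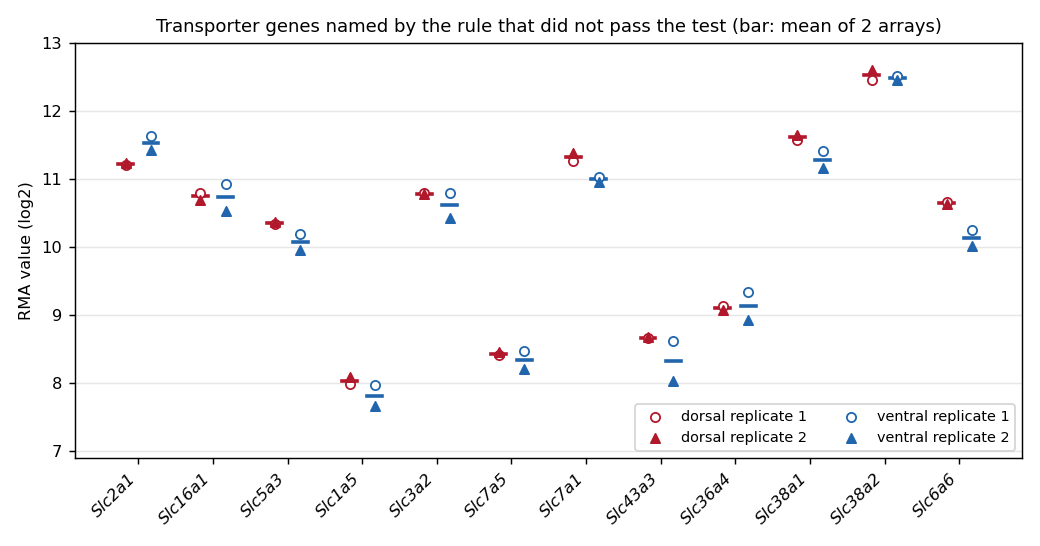
RMA values (log2, vertical axis) of 12 transporter genes that did not pass the test, with 1 symbol per array (circles for replicate 1, triangles for replicate 2) and the mean of 2 arrays as a bar, for the dorsal (red) and ventral (blue) parts. The parts overlap for *Slc16a1*, *Slc3a2*, *Slc7a5*, *Slc36a4* and *Slc38a2*, and values are to be compared within a gene only.

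None of the 5 tested Slc1 genes passed the limma test, also with none at an unadjusted p under 0.05, and their median was 0.16. *Slc1a5*, which encodes the glutamine carrier ASCT2, had values of 7.99 and 8.08 dorsally against 7.97 and 7.66 ventrally, a difference of 0.22 (SE 0.17, adjusted p = 0.533 from limma). The glial glutamate carrier gene *Slc1a3* differed by 0.24, and *Slc1a2*, *Slc1a4* and *Slc1a7* by -0.18, 0.16 and -0.22. *Slc1a1* and *Slc1a6* were not tested for their low values. The 4 Slc36 genes, for proton-coupled amino acid carriers, were tested and none passed, again with none at an unadjusted p under 0.05. *Slc36a4* differed by -0.04, *Slc36a2* by 0.16, *Slc36a3* by -0.24 and *Slc36a1* by -0.06, with a family median of -0.05.

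In Slc6, the family of taurine, creatine, glycine and transmitter carriers, none of 9 tested genes passed the limma test, 3 had an unadjusted p under 0.05 and the median was -0.26. *Slc6a6* encodes the taurine carrier TauT. Its values were 10.66 and 10.64 dorsally against 10.25 and 10.02 ventrally, and the difference of 0.52 (SE 0.17) missed the threshold (adjusted p = 0.0642 from limma). On all arrays *Slc6a6* passed with a filter at the 60th percentile, a further quantile normalization, a variance trend or the replicate block. The replicate block also called *Slc6a13* dorsally and *Slc6a4* ventrally. Over its 13 alternatives the difference of *Slc6a6* ran from 0.39 to 0.64. Fits without a ventral array take their spread from the dorsal arrays alone, so their calls are not counted for this family. A second probe set of *Slc6a6* had 9.19 and 9.21 dorsally against 8.61 and 7.93 ventrally, and its difference of 0.93 passed when every probe set was fitted on its own (adjusted p = 0.0307 from limma). Its other 2 probe sets gave 0.22 and -0.11 and did not pass. *Slc6a13*, a carrier gene for the transmitter GABA, differed by 0.53 (adjusted p = 0.0694), the largest difference that did not pass. The creatine carrier gene *Slc6a8* differed by -0.26 (adjusted p = 0.443), the same direction as *Slc16a12*. *Slc6a9*, a glycine carrier gene, differed by 0.03, and *Slc6a2*, *Slc6a4*, *Slc6a7*, *Slc6a15* and *Slc6a17* ran from -0.50 to -0.23. The 9 other genes, *Slc6a3*, *Slc6a5*, *Slc6a11*, *Slc6a12*, *Slc6a14*, *Slc6a16*, *Slc6a18*, *Slc6a19* and *Slc6a21*, were not tested for their low values.

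The 28 untested genes had values from 2.84 to 5.03. Of these, 24 exceeded the 40th percentile on no array and 4 on 1 array, and their differences ran from -0.49 to 0.45. No detection calls were used, so this says only that the probe sets were dim. Of the 93 genes, 49 had more than 1 probe set. For 26 genes several probe sets could be tested, and for 17 of them all tested probe sets had the same direction. Among the 7 called genes, *Slc2a3* and *Slc43a2* had several tested probe sets, and those of each gene agreed in direction.

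**Figure D4:**
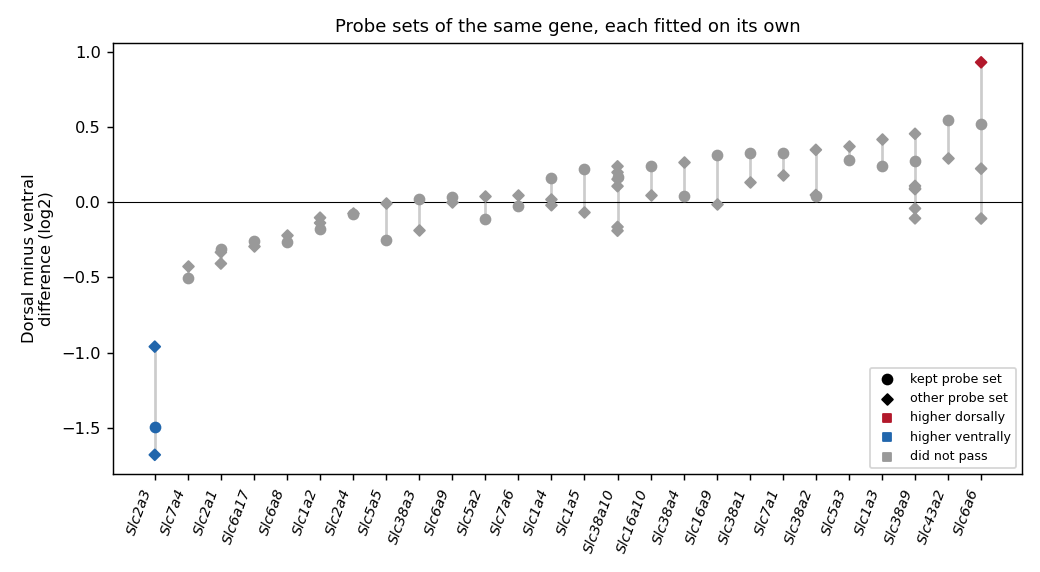
Dorsal minus ventral difference (log2, vertical axis) of each tested probe set of the 26 transporter genes that have several (horizontal axis), with circles for the probe set kept for the gene, diamonds for the others and colours for the limma call when each probe set was fitted on its own. The 3 probe sets of *Slc2a3* lie between -1.68 and -0.96, and those of *Slc6a6* spread from -0.11 to 0.93.

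Other genes of the same pathways were taken from lists. Of 10 tested genes for glucose phosphorylation and lactate handling, only *Pdk1* passed, ventrally, as did 4.09% of all tested genes. In this list 9 genes had lower means dorsally, with a median of -0.27, while 61.6% of all tested genes had higher means dorsally. *Pdk1* encodes a kinase that shuts pyruvate dehydrogenase off, and it had values of 9.44 and 9.55 dorsally against 10.03 and 10.59 ventrally (log2 difference -0.82, adjusted p = 0.00538 from limma). No gene of this list passed when either dorsal array was left out, 6 passed ventrally without ventral replicate 2 (6.21% of all tested genes), and 1 dorsally and 3 ventrally without ventral replicate 1 (35.1% and 12.3% of all). *Hk1* and *Hk2*, the hexokinase genes, differed by -0.52 and -0.40 and did not pass, and *Ldha*, the gene of the lactate dehydrogenase subunit of glycolytic tissues, differed by -0.17. Of the partner proteins of the carriers, *Emb*, which encodes embigin, was higher ventrally, with values of 10.23 and 10.20 dorsally against 11.30 and 10.84 ventrally (log2 difference -0.86, adjusted p = 0.00242 from limma). It did not pass without dorsal replicate 1, without dorsal replicate 2 or with the mean of all its probe sets. *Bsg*, the gene of basigin, the partner of MCT1 and MCT4, differed by -0.05 (adjusted p = 0.921).

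On the amino acid side, 1 of 21 tested genes of the amino acid response passed, ventrally (4.76%), beside 4.09% of all tested genes. It was *Ddit4*, whose product restrains mTORC1, with values of 10.07 and 10.13 dorsally against 10.98 and 10.79 ventrally (log2 difference -0.79, adjusted p = 0.00291 from limma). It did not pass without dorsal replicate 1 or without dorsal replicate 2. *Atf4*, the gene of the factor that drives this response, differed by 0.29 (adjusted p = 0.408). Of the list, 16 genes had higher means dorsally, with a median of 0.17, where 61.6% of all tested genes did. None of 25 tested genes of amino acid sensing by mTORC1 passed the limma test (1 at an unadjusted p under 0.05, median 0.15), and none of 11 genes of glutamine, glutamate and branched-chain amino acid metabolism did (1 at an unadjusted p under 0.05, median 0.16). Without ventral replicate 1, when the median of all tested genes was 0.18, these lists had 10, 12 and 5 genes higher dorsally, in a fit that called 35.1% of all tested genes dorsally. The glutamine list also had 1 gene higher ventrally without ventral replicate 1 and 1 without ventral replicate 2.

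The parts also differed in markers of other cell types, whose part in the transporter differences was not tested. With all arrays 4.79% of all tested genes were higher dorsally and 4.09% ventrally. Of 13 tested heart muscle genes 11 were higher ventrally, and the summed level of the list (log2 of the summed linear values) was 11.30 to 11.33 dorsally and 14.12 to 14.50 ventrally. Of 5 hepatic and visceral endoderm genes 3 were higher ventrally (9.31 to 9.35 against 11.38 to 11.56), and of 12 epithelial genes 5 were (13.45 to 13.51 against 13.72 to 14.04), though none when either dorsal array was left out and 9 without ventral replicate 2. Of 7 neural crest genes 6 were higher dorsally and 1 ventrally (11.38 to 11.41 against 10.13 to 10.16). Of 9 neuronal genes 6 were higher dorsally, while *Isl1* was higher ventrally (10.33 and 10.42 dorsally against 12.14 and 11.93 ventrally). *Isl1* had the highest values of this list and so weighs most in its summed level. That level was higher ventrally (11.55 to 11.63 against 12.16 to 12.40), unlike most genes of the list. Of 7 erythroid genes 4 were higher dorsally (15.76 on both arrays against 15.15 to 15.44), and of 10 foregut mesenchyme genes 3 were (14.47 to 14.51 against 13.97 to 14.33, and 8 without ventral replicate 1). None of 9 endothelial genes passed the limma test with all arrays (1 at an unadjusted p under 0.05; 11.62 to 11.67 against 11.60 to 11.93), and neither did the 2 tested macrophage genes (none at an unadjusted p under 0.05; 6.77 to 7.01 against 6.96 to 7.35). Without ventral replicate 1, 4 endothelial genes passed dorsally and 1 ventrally, and 1 macrophage gene passed ventrally, and without ventral replicate 2 the endothelial count was 2 ventrally. The shares of all tested genes in these fits are those given above for the transporters. No value is 0 on this scale. The arrays of the dorsal part differed by a median of 0.08 and those of the ventral part by 0.26 over all tested genes, and by 0.11 and 0.23 over the tested transporter genes.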

How the data were processed

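Total RNA (100 ng per array) from 2 dorsal and 2 ventral samples was labelled by the authors in 2 cycles and hybridised to Affymetrix arrays. The deposited values are RMA summaries, read as log2 from their range of 2.36 to 15.02, with scale and RMA version not given in the sources used here. Probe sets were named through the GEO platform annotation: 34958 of 45101 probe sets had 1 symbol, and all 93 member identifiers were found in the RefSeq table of GRCm38.p6. Dorsal minus ventral was fitted with lmFit and eBayes of limma 3.58.1 (R 4.3.3) over 13139 genes, two-sided, with Benjamini-Hochberg adjustment. The eBayes step draws the variance of each gene towards a value shared by all tested genes. An SE or p-value is therefore not a measure of that gene's own spread alone. With 2 arrays a side an exact permutation test cannot reach below 0.333, so none was used. In a simulation that changed 200 of the 13139 genes, 25.4% of log2 differences of 0.5 and 100% of those of 1 were recovered, and 3.85% of calls were false. The members and lists were chosen with earlier results of these data known. Named genes were those that passed without overlap, in each family the one with the highest mean and the 2 largest differences that did not pass, and 9 well known carriers. Other members were named to account for every one, and *Slc6a8*, *Hk1*, *Hk2*, *Ldha* and *Atf4* were chosen after their values were seen. Array number limits the precision. The alternatives changed the filter, scaling, probe sets, variance model, threshold, replicate block and arrays.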

Additional observations from a re-analysis of the deposited data

How the results depend on the processing

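*Slc2a3*, *Slc2a13*, *Slc16a3*, *Slc16a12* and *Slc38a5* passed the limma test under all 15 alternatives, *Slc7a2* under 12 of 14 and *Slc43a2* under 6 of 15. With the mean of all its probe sets *Slc7a2* fell below the filter, so it was neither tested nor called there. Unlike for Slc6, the fits without a ventral array are included here, and each of these genes passed in them. Their spread comes from the dorsal arrays alone. Over 405 comparisons of 32 named genes with an alternative, 370 kept their side of the threshold, 9 lost and 26 gained a call, and none of the called ones changed direction. The count of transporter genes higher dorsally was 5 with a filter at the 60th percentile, 1 with the mean of all probe sets and 1 to 15 with an array left out, and the ventral count was 4 to 11 with an array left out. In the same fits all tested genes higher dorsally numbered 247 to 4544 and all tested genes higher ventrally 276 to 1593, the most without ventral replicate 1. With the replicate block 11 transporter genes passed, 5 dorsally and 6 ventrally, including all 7 called without it, and deviations of same-numbered arrays correlated at 0.136 over 2 pairs, too few to pair the arrays. Family medians moved as follows, and the cause was not tested. Without a filter they were -0.17 for Slc16 and -0.0918 for Slc1, while averaging the probe sets of a gene gave -0.17 for Slc16. The Slc3 median was 0.17 at the 60th percentile, Slc43 0.24 after a further quantile normalization, Slc5 0.0109 without probe sets marked as shared, and Slc1 -0.0200 with each probe set alone. With an array left out they ran from -0.193 to -0.0177 for Slc5, -0.177 to 0.0667 for Slc16 and 0.0475 to 0.551 for Slc43. In these fits Slc7 ran from -0.04 to 0.22, Slc3 from -0.26 to 0.02, Slc36 from -0.11 to 0.04 and Slc6 from -0.24 to -0.15, and Slc7 was -0.03 without a filter and -0.01 after the further quantile normalization. Dim signal limits the 28 untested genes.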
